A study of Danio rerio with 33 samples.

Results

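The cytosolic ribosomal protein genes of the zebrafish were chosen by name, as genes whose symbol starts with rpl, rps or rplp and a number, without the rps6k kinases. The rule found 80 of 25432 genes, 33 named for the small subunit and 47 for the large subunit. Their RNA was counted by sequencing in 33 libraries, each from 1 pool of 10 wild-type whole embryos kept for 24 h, from 96 to 120 hours after fertilisation, in an organic extract of an air particle filter or in a control. A mixture of dichloromethane and methanol drew the organic compounds from the filters, and the extracts were dissolved in methanol; the labels call one control vehicle and the other mock filter. The libraries fall into 2 sequencing rounds with their own vehicle pools, and each round was analysed on its own.

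In the first round there were 15 libraries. Vehicle 1 to 3 and mock filter 1 to 3 (extract of a mock filter) were the controls. The harbour group had filters 32, 36 and 38, the road group (traffic road) filters 26, 28 and 30, and the airport group filters 44, 48 and 54, with 1 pool per filter. All of these filters came from Barcelona, in the cold season except airport filter 54, which came from the warm season. In the second round there were 18 libraries, 3 each of vehicle (4 to 6), harbour filter 36, harbour filter 38, road filter 26, road filter 28 and subway filter 80 from Valencia. Pools of 1 filter are repeats of an extract and not of the sampled air, and replicates in these groups are separate pools of embryos, per the labels. The subway libraries have library numbers of another series than the second-round vehicle libraries, and 1 pool of harbour filter 36 is the only other library of that series, so library series and subway extract can be told apart only through that pool. The labels do not explain the number that follows the filter in the names of the pools, so it is not given whether pools of 1 filter had equal doses, or whether the mock filter libraries come from 1 mock filter.

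Ribosomes are built in the nucleolus from ribosomal RNA and about as many proteins as there are genes in this group, and each protein enters a subunit in a fixed amount. Transcripts of these genes are among the commonest in a cell. They start with a terminal oligopyrimidine (TOP) motif, through which mTOR signalling controls their translation, and growing and dividing cells make more ribosomes than resting ones. In a whole embryo, fewer cells of a type that is rich in these transcripts and less of the RNA per cell cannot be told apart.

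The name rule and the biology of the ribosome did not match in every gene. rpl7l1 is a paralogue of rpl7 whose human protein is found in precursors of the large subunit, and it was counted as a member by its name. rpsa, faua and rack1, which encode ribosomal proteins or a protein held on the small subunit, do not carry such names and were kept apart. All 80 members passed the filter on low counts in both rounds, where 21608 and 21856 genes were tested, and the lowest count of a member in any library was 170. Library totals ran from 18448718 counts in vehicle 1 to 51854033 in airport filter 54. The next highest total of the first round was 30700810, in road filter 28. The exposure marker cyp1a, a monooxygenase induced through the aryl hydrocarbon receptor, was higher than in vehicle in the first-round harbour and road groups by 2.49 ± 0.38 and 2.69 ± 0.38 in log2 (SE, adjusted p = 0.027 and 0.0258, edgeR), while in airport it stood at 0.40 ± 0.37 (adjusted p = 0.491). Of the 5 exposure markers of this receptor 3 passed as higher in harbour, 3 in road and 2 in airport. Over all genes 0.0463%, 0.0139% and 9.51% were called higher there. Those in airport were cyp1c2, another monooxygenase (1.14 ± 0.31, adjusted p = 0.0196, edgeR), and ahrra, a repressor of the receptor (2.00 ± 0.62, adjusted p = 0.0341). In harbour and road ahrra was higher still, at 2.949 ± 0.595 and 2.876 ± 0.592, without passing (adjusted p = 0.0732 and 0.42, edgeR). There cyp1c2 stood at 1.222 ± 0.314 and 0.805 ± 0.314, also without passing (adjusted p = 0.114 and 0.93).

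The members together held between 3.54% and 5.81% of all gene counts in a library. In the first round the share was 4.34%, 5.81% and 5.42% in vehicle 1, 2 and 3, with a mean of 5.19% ± 0.76 (SD, n = 3). It was 4.75%, 4.71% and 4.63% in mock filter 1 to 3. Harbour filters 32, 36 and 38 had 4.81%, 4.98% and 5.58%, and road filters 26, 28 and 30 had 4.94%, 4.70% and 4.78%. Airport filters 44, 48 and 54 had 3.87%, 4.76% and 3.54%, with a mean of 4.06% ± 0.63 (SD, n = 3). Airport filters 44 and 54 were below every other first-round library, while airport filter 48 lay within the range of road, and vehicle 1 lay below airport filter 48.

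In the second round the share was 4.16%, 4.23% and 4.98% in vehicle 4, 5 and 6. Harbour filter 36 had 4.63%, 4.67% and 3.55%, and harbour filter 38 had 3.93%, 4.53% and 3.98%. Road filter 26 had 4.16%, 4.47% and 4.01%, road filter 28 had 4.61%, 4.61% and 4.25%, and subway filter 80 had 4.11%, 4.28% and 4.06%. The range of every extract group overlapped that of vehicle. The lowest value was that of the pool with replicate number 4 of harbour filter 36, called pool 4 here.

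**Figure D1:**
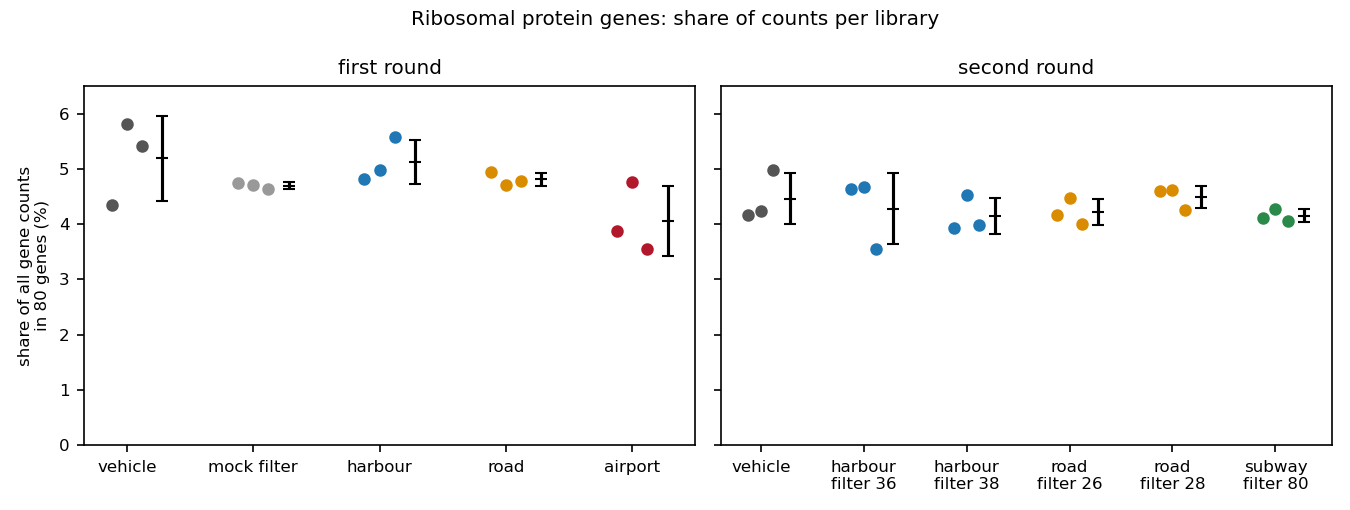
Share of all gene counts (percent, from 0) held by the 80 ribosomal protein genes in each library, by group, in the first round (left) and the second (right). Points are libraries, and the bar beside them is the mean with the SD of 3 libraries. Airport filters 44 and 54, at 3.87% and 3.54%, are the lowest of the first round, and pool 4 of harbour filter 36, at 3.55%, is the lowest of the second.

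Most of the differences between libraries were shared by nearly all members. A principal component analysis of the log2 CPM of the members (counts scaled to the library total by TMM) put 78.3% of their variance on the first component in the first round and 77.2% in the second. The median member lay 0.25 above the mean of the first-round vehicle libraries in vehicle 2 and 0.27 below it in vehicle 1, in log2, so these pools of 1 group were farther apart than the airport and vehicle groups were in the median. Within groups the SD of a member had a median of 0.21 in the first round and 0.15 in the second, and over all genes tested the medians were 0.24 and 0.16. Members are therefore not independent of each other, and a count of members called is not a count of separate events.

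In the median over the members, airport lay lowest of the first-round groups. Of 80 members 26 fell against vehicle and 0 rose (edgeR's quasi-likelihood test, Benjamini-Hochberg adjustment over all genes, threshold 0.05), which is 32.5% of the members where 9.5% of all genes tested were called lower and 9.51% higher. 79 of 80 members lay below vehicle, with a median of -0.40 in log2, a fold of 0.758, while the median over all genes was -0.03. The members that fell were 11 of 33 of the small subunit and 15 of 47 of the large, and the median log2 change of both subunits was close, -0.41 and -0.39. The called changes ran from -0.72 to -0.36.

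rplp2 (ENSDARG00000101406), an acidic protein of the stalk where elongation factors dock on the large subunit, had the smallest p of the members. It had 164, 249 and 220.4 CPM in vehicle 1, 2 and 3 and 128, 155 and 103 CPM in airport filters 44, 48 and 54. The groups did not overlap, and the lowest vehicle and the highest airport library were close. Its log2 change was -0.72 ± 0.18 (SE, adjusted p = 0.012, edgeR; 95% interval -1.09 to -0.34). In the mock filter libraries it had 197, 151 and 133 CPM, so 2 of the 3 lay below airport filter 48.

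The other stalk genes did not pass. rplp0, the stalk's base, had 1335, 2110.4 and 1851 CPM in vehicle and 1391, 1589 and 845 CPM in airport filters 44, 48 and 54, a log2 change of -0.47 ± 0.20 (SE, adjusted p = 0.109, edgeR). Its vehicle and airport ranges overlapped through vehicle 1. rplp1, the partner of rplp2, had 552, 901 and 714 CPM in vehicle and 599, 784 and 447 CPM in airport, a change of -0.24 ± 0.19 (adjusted p = 0.414, edgeR). The values of rplp1 in filters 44 and 48 lay inside the vehicle range.

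In the large subunit, rpl3, a protein near the peptidyl transferase centre, had 1588, 2319 and 2165 CPM in vehicle and 1471, 1686 and 1092 CPM in airport. It fell by 0.52 in log2 (SE 0.16, adjusted p = 0.0333, edgeR), with airport filter 48 above vehicle 1. rpl17 fell by 0.50 (SE 0.14, adjusted p = 0.0249) and rpl9 by 0.39 (SE 0.12, adjusted p = 0.0301). The ranges of rpl17 overlapped, with 397 to 588 CPM in airport and 580 to 777 CPM in vehicle. rpl9 had 902, 1107 and 992 CPM in vehicle and 676, 863 and 754 CPM in airport, without overlap. Mock filter, at 818 to 851 CPM of rpl9, also lay wholly below vehicle, and airport filter 48 lay above every mock filter library. rpl10, which joins the large subunit in its last steps of maturation, had 427, 835 and 673 CPM in vehicle and 506, 596 and 254 CPM in airport. Its change of -0.51 ± 0.25 did not pass (adjusted p = 0.169, edgeR), and its spread within groups was the widest of the members in this round.

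Rpl5 and Rpl11 form a particle with a small ribosomal RNA before they enter the large subunit, and in mammalian cells this particle binds Mdm2, the inhibitor of p53. Zebrafish have rpl5a and rpl5b. rpl5b had 941, 1094 and 972 CPM in vehicle and 710, 870.4 and 744 CPM in airport, without overlap, and fell by 0.37 (SE 0.11, adjusted p = 0.0318, edgeR). rpl5a had 877, 874 and 782 CPM in vehicle and 594, 744 and 763 CPM in airport, also without overlap, but its change of -0.27 ± 0.12 did not pass (adjusted p = 0.137). rpl11 was at -0.31 ± 0.13 (adjusted p = 0.121), with 401 to 507 CPM in airport and 454 to 662 CPM in vehicle. Mock filter also lay wholly below vehicle in rpl5b and rpl5a, with 836 to 920 CPM and 667 to 770 CPM.

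In the small subunit, rps16 fell by 0.45 (SE 0.12, adjusted p = 0.0139, edgeR), from 416, 492 and 419 CPM in vehicle to 292, 378 and 303 CPM in airport. All airport libraries were below all vehicle libraries. rps26l fell by 0.51 (SE 0.14, adjusted p = 0.0217), with overlapping ranges of 255 to 347 CPM in airport and 338 to 493 CPM in vehicle. rps6, which S6 kinase phosphorylates downstream of mTOR, had 677, 1143 and 949 CPM in vehicle and 694, 864 and 477 CPM in airport, and its change of -0.45 ± 0.19 did not pass (adjusted p = 0.124). rps19, whose human gene is mutated in Diamond-Blackfan anaemia, stood at -0.37 ± 0.14 (adjusted p = 0.0759). The airport ranges of rps6 and rps19 overlapped those of vehicle.

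Paralogues of the common ribosomal proteins were looked at singly. rps27l, a p53 target in human cells, had 13.5, 18.1 and 14.3 CPM in vehicle and 13.3, 16.5 and 12.1 CPM in airport (-0.14 ± 0.15, adjusted p = 0.573, edgeR). rps8b had 10.6 to 10.9 CPM in airport and 10.9 to 12.0 CPM in vehicle (-0.12 ± 0.11, adjusted p = 0.521). rpl22l1 fell by 0.43 (SE 0.14, adjusted p = 0.041), while its paralogue rpl22 was at -0.36 ± 0.13 (adjusted p = 0.0677). The difference between paralogues was not tested. Reads of near-identical copies could have been split by the counting, so single values of rps26 and rps26l, rps27.1, rps27.2 and rps27l, rps8a and rps8b, rpl5a and rpl5b, rpl22 and rpl22l1, and rplp2 and rplp2l are uncertain.

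rpl7l1 was the 1 member above vehicle. It had 30.7, 37.3 and 27.3 CPM in vehicle 1 to 3 and 38.6, 40.2 and 25.8 CPM in airport filters 44, 48 and 54. Filters 44 and 48 lay above the vehicle range and filter 54 below it, and the change of 0.13 ± 0.17 did not pass (adjusted p = 0.653, edgeR).

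The count of members called lower in airport depended on particular pools. Measured as the median over the 80 members against the vehicle mean, filter 44 lay at -0.51, filter 54 at -0.61 and filter 48 at -0.15 in log2, and mock filter 1 to 3 at -0.18, -0.25 and -0.30. The count of 26 dropped to 0 without vehicle 2, to 4 without vehicle 3, to 1 without airport filter 44 and to 4 without airport filter 54. It grew to 51 without vehicle 1 and to 49 without airport filter 48. Of the 26 themselves, 3 were still called without vehicle 3, 3 without airport filter 54, 24 without vehicle 1 and 25 without airport filter 48. All 26 kept the sign of their change in each of these fits, and the median of the members ran from -0.53 to -0.28. The share of all genes called in each of these fits is not given here, so their counts cannot be set against it. In the fit of airport and vehicle alone, with fewer libraries to estimate the spread, 1 member passed. By the median over members, the pools of vehicle (-0.27 to 0.247) and of airport were more spread than those of the other groups. Harbour ran from -0.119 to 0.135 and road from -0.164 to -0.015. The main fit shares 1 spread over all groups, so its SEs and adjusted p for airport against vehicle draw on groups that varied less. Vehicle 2 and 3 also had more duplicate reads, 30.92% and 30.18%, than vehicle 1 (19.5%) and the airport libraries (17.7% to 23.4%). Mock filter 1, at 31.1% duplicates, had the highest member share of the mock filter libraries, 4.75%, and road filter 28, at 30.4% duplicates, had the lowest of the road libraries, 4.70%. The part of duplicates in the result was not tested.

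Against mock filter, the control made from the extract of a mock filter, no member was called. 0 of 80 members fell and 0 rose in edgeR, where 6.93% of all genes were called lower and 7.92% higher, 2 had an unadjusted p under 0.05, and DESeq2 called 0. The median of the members was -0.17, and 64 of 80 lay below mock filter. rplp2 stood at -0.32 ± 0.18 (adjusted p = 0.243). The lowest limit of a 95% interval was -0.84, for rps2, and its change of -0.60 against vehicle lies within that interval. The intervals of the other members did not reach as low. Whether each of them holds that member's change against vehicle is not given here. Mock filter itself lay below vehicle for 79 of 80 members, with a median of -0.25. None of these passed (0% of genes were called in either direction, 18 members had an unadjusted p under 0.05, and DESeq2 called 0 members). The airport comparisons with vehicle and with mock filter share the airport libraries.

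In the harbour and road extracts of the first round no member passed. In harbour the median was -0.05, with 52 of 80 members below vehicle and 0 called, where 0.0463% of all genes were called in each direction. In road it was -0.12, with 73 of 80 below and 0 called, where 0% of genes were called lower and 0.0139% higher. Unadjusted p was under 0.05 for 0 members in harbour and 2 in road, and DESeq2 called 0 in both. Few genes of any kind were called in these groups, so an uncalled member says little by itself. The 95% intervals over all members spanned -0.68 to 0.65 in harbour and -0.90 to 0.56 in road, in log2.

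Airport was set against the mean of harbour and road to ask whether the fall differed between sites. 19 of 80 members were lower and 0 higher in airport, 23.8% of the members where 10.3% of all genes were called lower and 10.3% higher. The median was -0.32, and 76 of 80 members lay below. rps3a, a small subunit protein, was lower by 0.58 (SE 0.17, adjusted p = 0.0214, edgeR), rpl12, at the base of the stalk, by 0.51 (SE 0.14, adjusted p = 0.0207) and rplp2 by 0.52 (SE 0.16, adjusted p = 0.0291). Without airport filter 44 or 54 the count was 0, without harbour filter 38 or road filter 26 it was 2, without road filter 28 it was 6, without road filter 30 it was 12, and without airport filter 48 it was 47. With the mean insert size of the libraries as a covariate, an alternative chosen after the data were seen, it was 0. For these refits the share of all genes called is not given here, so their counts cannot be set against it.

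**Figure D2:**
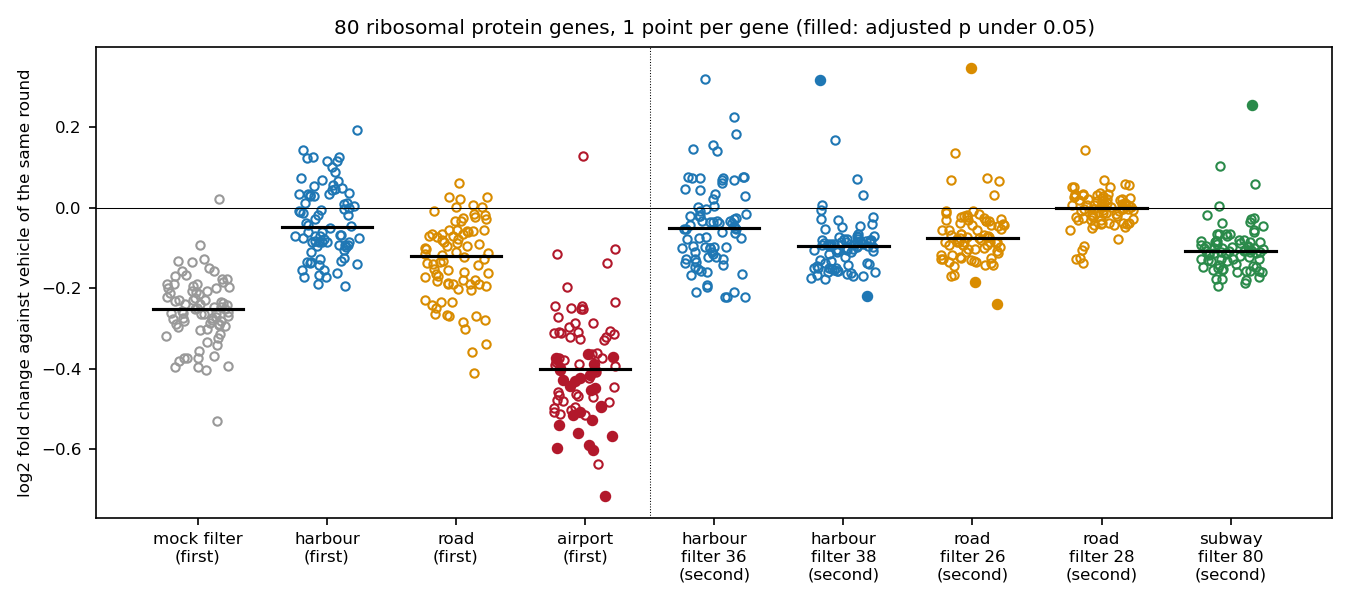
Log2 fold change of each of the 80 members (1 point per gene) against the vehicle libraries of the same round, for the 4 groups of the first round and the 5 of the second. Filled points passed at an adjusted p under 0.05, and the black line is the median over the members. The airport median is -0.40, and the single filled points above 0 in harbour filter 38, road filter 26 and subway are rpl7l1. Groups of a round share their vehicle libraries.

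Apart from this shared shift, a second component held 13.9% and 13.5% of the variance of the members and set a few libraries apart. On one side rps15a and rpl26 had the highest loadings in both rounds, and on the other side rpl10 did. These genes were chosen after their values were seen. rps15a (ENSDARG00000010160) had 551 CPM in airport filter 54 and 220.2 and 325 CPM in filters 44 and 48, while rpl10 (ENSDARG00000025581) had 254 CPM in filter 54 and 506 and 596 CPM in the others. The pool numbered 4 of harbour filter 36 had 436 CPM of rps15a and 311 CPM of rpl10, and the pools numbered 2 and 3 had 318 and 320 CPM of rps15a and 592 and 615 CPM of rpl10. Airport filter 54 and pool 4 of harbour filter 36 thus moved rps15a and rpl10 in opposite directions from the other pools of their filter or site.

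Both libraries had short inserts, the mean mapping distance between the reads of a pair. Airport filter 44, with 262 bases, lay at the other end of this component in the first round. Airport filter 54 had 197 bases and vehicle 1 had 222, and the other 13 first-round libraries had 243 to 293. In the second round pool 4 of harbour filter 36 had 228 bases and the other 17 libraries had 256 to 318. The count of rpl10 over that of rps15a was 0.461 in airport filter 54 and 1.002 in vehicle 1, and 1.84 to 2.42 in the rest of the first round. It was 0.713 in pool 4 of harbour filter 36 and 1.66 to 2.26 in the rest of the second round. In the 2 libraries of the first round and the 1 of the second, the ratio of these genes and the insert size therefore both lay outside the range of the other libraries, and the part of insert size in the members' levels was not tested beyond the covariate. With insert size as a covariate, 25 of the 26 members lower in airport than in vehicle were still called. Without both vehicle 1 and airport filter 54, also chosen after the data were seen, it was 20 of 26.

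**Figure D3:**
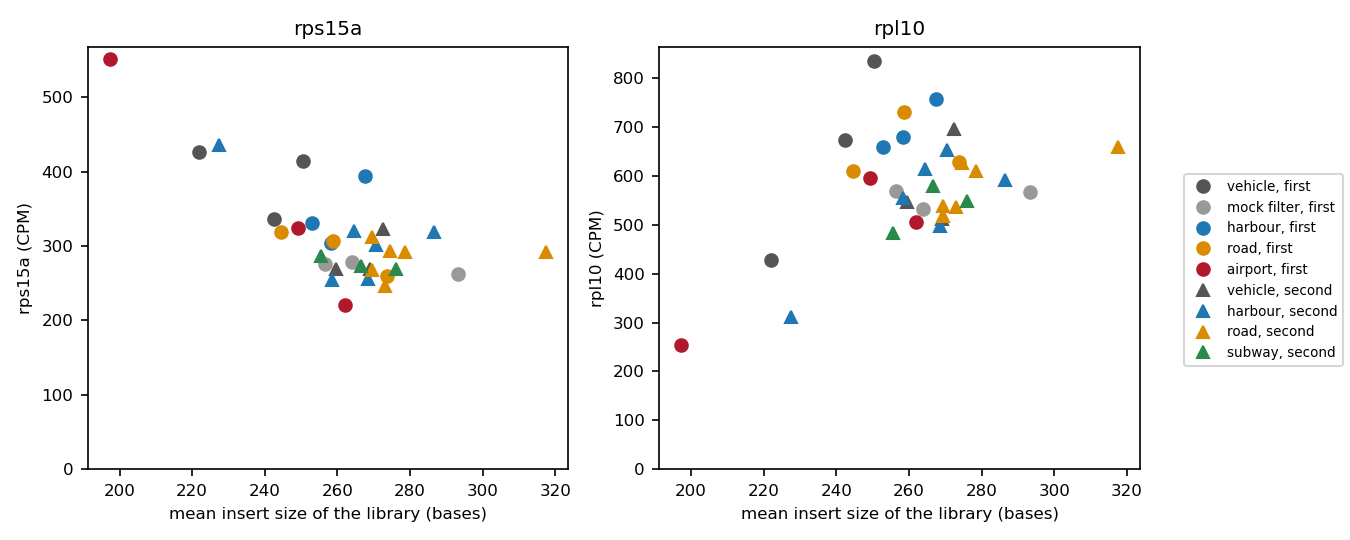
Level of rps15a (left) and rpl10 (right) in CPM, from 0, against the mean insert size of the library in bases, with circles for the 15 libraries of the first round and triangles for the 18 of the second. The 3 libraries with inserts under 230 bases have 427 to 551 CPM of rps15a and 254 to 427 CPM of rpl10, the lowest rpl10 values of all libraries.

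**Figure D4:**
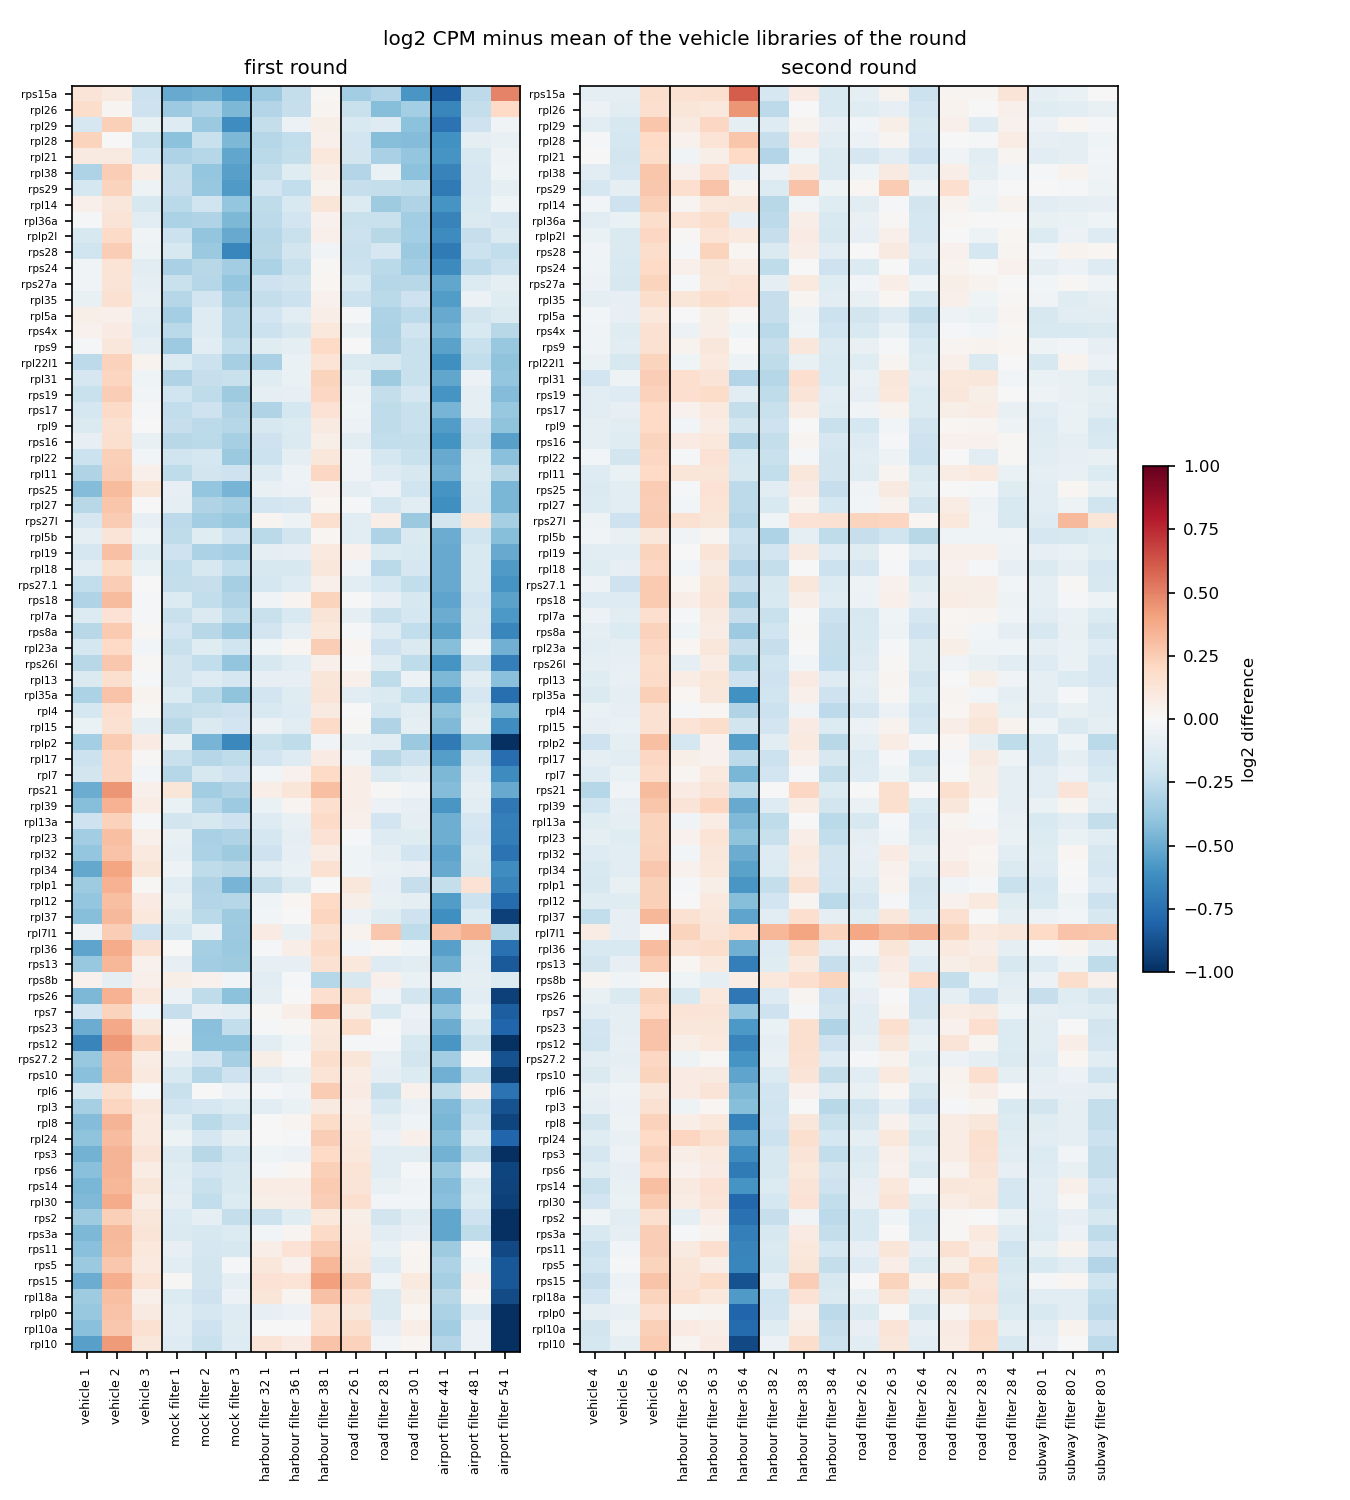
Level of each member (rows) in each library (columns) as the log2 CPM minus the mean of the vehicle libraries of its round, from blue (lower) through white to red (higher), in the first round (left) and the second (right). Rows are ordered by the second component of the first round. Most columns have 1 colour from top to bottom, and airport filter 54 and pool 4 of harbour filter 36 change from red for rps15a and rpl26 at the top to blue for rpl10 at the bottom.

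In the second round, where each filter was given to 3 pools, few members were called although many other genes were. Harbour filter 38 had 1 member lower and 1 higher than vehicle, where 13.5% of all genes were called lower and 15.3% higher, and a median of -0.09. Road filter 26 had 2 lower and 1 higher, where 15.4% were called lower and 17% higher, and a median of -0.07. Subway filter 80 had 0 lower and 1 higher, where 6.06% were called lower and 6.84% higher, and a median of -0.11. The 95% intervals over all members spanned -0.45 to 0.46 in harbour filter 38, -0.42 to 0.49 in road filter 26 and -0.51 to 0.40 in subway.

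Harbour filter 36 and road filter 28 had 0 members lower and 0 higher in edgeR and in DESeq2. In harbour filter 36, 0.128% of all genes were called lower and 0.261% higher, the median of the members was -0.05 and 3 had an unadjusted p under 0.05. In road filter 28, 0.0366% were called lower and 0.128% higher, the median was 0.00 and 0 had an unadjusted p under 0.05.

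rpl7l1 (ENSDARG00000042864) was the member that rose. It had 24.8, 22.2 and 23.6 CPM in vehicle 4 to 6. Harbour filter 38 had 29.6, 30.9 and 27.4 CPM, road filter 26 had 30.7, 29.2 and 29.7 CPM and subway filter 80 had 26.95, 28.71 and 28.51 CPM. Each of these pools lay above every vehicle pool. The rise was 0.32 ± 0.07 in harbour filter 38 (SE, adjusted p = 0.00171, edgeR), 0.35 ± 0.07 in road filter 26 (adjusted p = 0.000637) and 0.25 ± 0.07 in subway (adjusted p = 0.0203). Harbour filter 36, with 27.4, 25.7 and 27.1 CPM, and road filter 28, with 27.4, 25.1 and 25.5 CPM, also lay above the vehicle range, at 0.18 ± 0.07 and 0.14 ± 0.07, but did not pass (adjusted p = 0.342 and 0.823). The subway call was lost without vehicle 5 or without the subway pool with replicate number 2 or 3. These comparisons share vehicle 4 to 6.

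rpl5b and rpl5a went the other way. rpl5b had 846, 822 and 938 CPM in vehicle, 738, 756 and 715 CPM in road filter 26 and 700.0, 812 and 725 CPM in harbour filter 38. All of these treated pools were below the lowest vehicle pool. It fell by 0.24 in road filter 26 (SE 0.07, adjusted p = 0.0167, edgeR) and by 0.22 in harbour filter 38 (SE 0.07, adjusted p = 0.0294). rpl5a had 713, 688 and 781 CPM in vehicle and 641, 665 and 614 CPM in road filter 26, again without overlap, and fell by 0.19 (SE 0.07, adjusted p = 0.0388). In harbour filter 38, where 1 pool reached 702 CPM, it was at -0.16 ± 0.07 (adjusted p = 0.0724). rpl11, the partner of Rpl5 in its particle, was at -0.09 ± 0.10 in road filter 26 and -0.10 ± 0.10 in harbour filter 38 (adjusted p = 0.562 and 0.495). Without vehicle 6, which had the highest rpl5a and rpl5b, none of the calls of rpl5a and rpl5b in these groups was kept. The call of rpl5b in harbour filter 38 was also lost without pool 2 or 4 of that filter, that of rpl5b in road filter 26 without its pool 4, and that of rpl5a in road filter 26 without vehicle 4 or its pool 2 or 4.

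**Figure D5:**
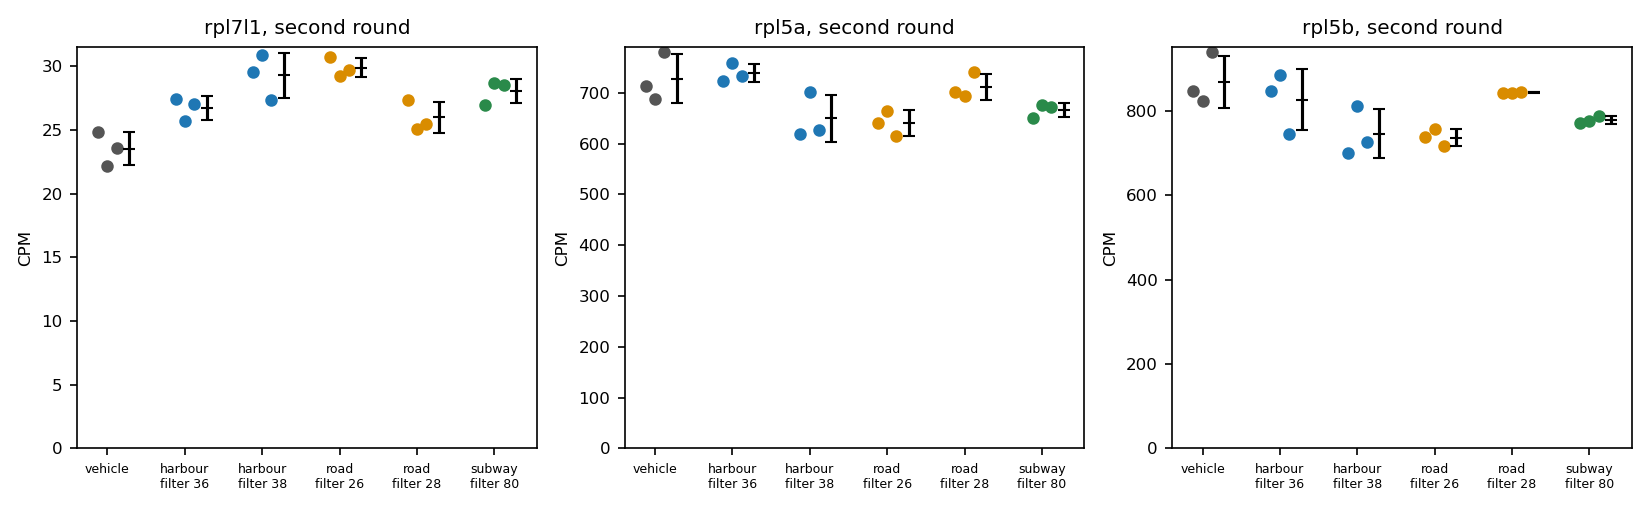
Levels of rpl7l1, rpl5a and rpl5b in CPM (from 0) in each library of the second round, by group, with the mean and SD of 3 libraries beside the points. rpl7l1 lies at 22.2 to 24.8 CPM in vehicle and above that in every other group, and rpl5b lies at 715 to 756 CPM in road filter 26 against 822 to 938 CPM in vehicle.

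Filters of the same site were set against each other. Harbour filter 38 was lower than harbour filter 36 in 5 members and higher in 0, 6.25% of the members, where 11.3% of all genes were called lower and 12.6% higher. rps15a was lower by 0.40 (SE 0.11, adjusted p = 0.00919, edgeR) and rpl26 by 0.36 (SE 0.09, adjusted p = 0.00542), and rpl35, rps24 and rpl5a by 0.25, 0.23 and 0.19. rpl26 had 626, 618 and 780 CPM in filter 36 and 480, 577 and 518 CPM in filter 38, with no overlap and the highest value in pool 4 of filter 36. That pool had the short inserts and is the only one of these 6 libraries from the library series of the subway pools. With insert size as a covariate all 5 members were still called, and in the fit of all 33 libraries with library series 0 were. Without that pool 7 members were called, among them 3 of the 5, and rps15a and rps24 were not. Without pool 3 of filter 36, or pool 2 or 4 of filter 38, the count was 2, and without pool 3 of filter 38 it was 11. For these refits, too, the share of all genes called is not given here. Road filter 26 against road filter 28 gave 0 lower and 1 higher, where 12.3% were called lower and 14.3% higher. The 1 was rpl7l1, at 0.20 ± 0.07 (adjusted p = 0.0336), and its call was lost without pool 2 or 4 of filter 26 and without pool 3 or 4 of filter 28.

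Ribosomal proteins outside the name rule and other parts of the translation machinery were set beside the members, each list described by its counts. Of rpsa, faua and rack1, faua fell in airport against vehicle (-0.37 ± 0.12, adjusted p = 0.0403, edgeR), and rpsa and rack1 stood at -0.415 ± 0.168 (adjusted p = 0.0981) and -0.408 ± 0.166 (adjusted p = 0.1) without passing. Of 13 elongation factors 3 fell and 0 rose, namely eef1g, eef1db and eef1b2, subunits of the exchange factor of elongation factor 1 (-0.51, -0.43 and -0.37). Of 20 other transcripts of the TOP class 2 fell and 0 rose, with a median of -0.21, and these were eef1g and eef1b2 again, a share near the 9.5% of all genes called lower.

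Of 30 initiation factors 6 were lower and 3 higher in airport. Over all genes 9.5% were called lower and 9.51% higher, so the share that rose is near the background. eif4a1b and eif4a2, helicases that unwind messenger RNA, fell by 0.44 and 0.49, and the scaffold genes eif4g1a and eif4g2a rose by 0.50 and 0.57. Among 18 repressors of translation and nutrient sensors 4 rose and 1 fell. ddit4 and sesn2, stress-induced inhibitors of mTOR signalling, rose by 1.84 and 1.39 (SE 0.41 and 0.29, adjusted p = 0.00631 and 0.00433), rps6kb1a, an S6 kinase, rose by 1.15 (SE 0.22, adjusted p = 0.00275), and sesn3 fell by 0.69 (SE 0.11, adjusted p = 0.0011).

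Of 57 genes that build ribosomes 7 rose and 2 fell in airport, with a median of 0.14, where 9.51% of all genes were called higher and 9.5% lower, so the share that rose is near the background. grwd1, a chaperone of Rpl3, rose by 0.79 (SE 0.18, adjusted p = 0.00654, edgeR) and nop2, a methyltransferase of ribosomal RNA, by 0.58 (SE 0.13, adjusted p = 0.00789), while npm1b, a nucleophosmin, fell by 0.65 (SE 0.13, adjusted p = 0.00305). In harbour filter 38, 17 rose and 4 fell, where 15.3% of all genes were called higher. In road filter 26, 11 rose and 4 fell, where 17% were called higher, and in subway 7 rose and 4 fell, where 6.84% were. Of 75 mitochondrial ribosomal proteins 7 rose and 1 fell in airport, with a median of 0.09, against 14 and 0 in harbour filter 38 and 10 and 0 in road filter 26. The shares that rose in airport and harbour filter 38 are near those over all genes, and the share in road filter 26 is below it. The difference between these lists and the members was not tested.

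Markers of dividing cells fell in airport, harbour filter 38 and road filter 26. The members had medians of -0.40, -0.09 and -0.07 in these groups. Of 15 markers of proliferating cells 15 fell in airport, with a median of -0.99, and their summed level was 235 to 288 CPM in airport and 436 to 567 CPM in vehicle. In harbour filter 38 and road filter 26 all 15 fell as well, with medians of -1.09 and -1.001. Their summed levels there were 341 to 443 and 356 to 452 CPM, against 710.2 to 808 CPM in vehicle. In subway 10 of 15 fell. Over all genes 9.5% were called lower in airport, 13.5% in harbour filter 38, 15.4% in road filter 26 and 6.06% in subway. The part of dividing cells in the levels of the members was not tested. mki67, of dividing nuclei, stood at -1.42 in airport and mcm2, of the replication helicase, at -1.16 (adjusted p = 0.00138 and 0.00151, edgeR).

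Other markers changed in airport beside the members. Against vehicle, 9.5% of all genes tested were called lower there and 9.51% higher. Of 17 exocrine pancreas markers 4 fell, with summed levels of 6317 to 7842 CPM against 7259 to 9648 CPM in vehicle, and of 12 erythroid markers 3 fell, with 287 to 482 against 394 to 630 CPM. Of 9 epidermal markers 7 fell and 2 rose, with 6340.2 to 7359.6 against 13872 to 17372 CPM. Of 12 skeletal muscle markers 1 fell, and their summed level was 55811 to 60622 CPM in airport and 68089 to 81292 CPM in vehicle. Of 9 markers of lens and photoreceptors 6 fell, with 2647 to 3191 against 3760.0 to 4138 CPM. Of 6 heart markers 3 rose, with 88.9 to 114 against 71.0 to 79.6 CPM, and of 10 markers of neutrophils and macrophages 3 rose, with 223 to 916 against 98.01 to 255 CPM. The airport and vehicle ranges of epidermis, muscle, lens and heart did not overlap. Nor did those of mock filter and vehicle in epidermis (11526 to 12426 CPM) and lens (3140.5 to 3609.9 CPM). The same was so in harbour for epidermis (8676 to 12262 CPM) and heart (90.5 to 113 CPM). In road the ranges of these tissues overlapped those of vehicle. In the second round, harbour filter 38, road filter 26 and subway differed without overlap from their own vehicle in epidermis and heart. Road filter 26 and subway also did so in lens, road filters 26 and 28 in muscle, and road filter 28 in epidermis. The other second-round ranges of these tissues overlapped those of vehicle. Of 10 liver markers 4 rose and 2 fell in airport, and of 8 markers of neurons 1 fell. None of these marker genes was at 0 in all libraries. The part of these tissues in the levels of the members was not tested. The 11 tested markers of an interferon response summed to 318 CPM in vehicle 3, 302 and 327 CPM in mock filter 2 and 3 and 201 to 236 CPM in airport, against 127 and 151 CPM in the other vehicle libraries, 137 CPM in mock filter 1 and 116 to 143 CPM in harbour and road. None of them passed in airport against vehicle. Without vehicle 3 and mock filter 2 and 3, an alternative chosen after the data were seen that leaves out controls and no airport library, 2 members were called lower in airport against vehicle. For that fit the share of all genes called is not given here.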

How the data were processed

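The authors deposited a table of raw counts for 25432 genes in 33 libraries, of which 1806 genes had no symbol. Their quality table, per the file headers, gives the percent of unique, unmapped and duplicate reads and the mean insert size of each library. The submitters' processing notes name CASAVA, BWA and GRCz11. Which program counted the reads, with which strand setting and annotation, is not given in the sources used here.

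Each round was filtered with filterByExpr, scaled by TMM and fitted with 1 coefficient per group by edgeR 4.0.16 (quasi-likelihood) in R 4.3.3, so all groups of a round share the residual spread. P-values were adjusted by Benjamini and Hochberg's method across every gene that passed the filter, at 0.05. The SE is the log2 change over the root of its F statistic, and intervals are 95%. log2 CPM had a prior count of 2. DESeq2 1.42.0 was an alternative, as were other scalings, filters, sets of libraries and covariates. The fits were tested on simulated data in which each gene varied on its own. That test could not check calls of members that shift together. Library pairs of a group differed by 4.32 to 53.7 in chi-square per degree of freedom, so none was a copy.

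The members, gene lists and tests were chosen with earlier results of these data known. Named were rplp0, rplp1, rplp2, rpl5a, rpl5b, rpl11, rps6, rps19, rpl3, rpl10, rpl22, rpl22l1 and rps27l, members with the smallest p in airport, road filter 26 and harbour filter 38, members that passed against the majority, and up to 4 genes per other list. 1 gene of these lists is not reported here.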

Additional observations from a re-analysis of the deposited data

Results flagged for a closer look

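A test of the difference itself set airport apart from the mean of harbour and road, with 19 of 80 members lower. These are 23.8% of the members, where 10.3% of all genes were called lower. Between filters of 1 site, harbour filter 38 lay below harbour filter 36 in rpl26 (-0.363), rps15a (-0.402), rpl35 (-0.246), rps24 (-0.233) and rpl5a (-0.186), and road filter 26 lay above road filter 28 in rpl7l1 (0.202), all log2 differences that passed in edgeR over all genes. rps15a and rpl26 were highest in pool 4 of harbour filter 36, which has the shortest inserts of its round and another library series than the other pools compared. The 5 members of the harbour comparison are 6.25% of the members, where 11.3% of all genes were called lower. With insert size as a covariate all 5 were still called, but 0 of the 19 in airport and 0 in the road comparison. In the fit of all 33 libraries with library series, 0 of the 5 and all of the 19 were still called. Without airport filter 44 or 54, 0 of the 19 were. The fit of all 33 libraries tested the 19 by site, so repeat pools of 1 extract counted as separate replicates.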

How the results depend on the processing

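The count of 26 members lower in airport than in vehicle became 15 with TMM factors estimated without the members, 10 with no filter on low counts, 1 with these groups alone and 61 with all 33 libraries and library series. It became 2 without the interferon libraries and 4 with vehicle and mock filter as control, which were chosen after seeing the data, as were leaving out vehicle 1 with airport filter 54 and the insert covariate. Against harbour and road the 19 became 12 with no filter, 33 in DESeq2, 54 with all libraries, 0 with the insert covariate, 9 without vehicle 1 and airport filter 54, and 3 without the interferon libraries. Without vehicle 1 and airport filter 54, 1 member was higher in airport than in mock filter. The fits of all 33 libraries for the airport comparisons grouped by site, so repeat pools of 1 extract counted as separate replicates.

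In the second round, members lower in road filter 26 than in vehicle numbered 1 with no filter and 1 with these groups alone, and in harbour filter 38 they numbered 2 in DESeq2 and 0 with these groups alone. Harbour filter 38 against 36 gave 8 in DESeq2 and 0 with these groups alone, and road filter 26 against 28 gave 1 lower in each of the same settings. With all 33 libraries the counts were 0 lower and 0 higher in harbour filter 38, 0 lower in road filter 26, 0 higher in subway, 0 lower in harbour filter 38 against 36 and 0 higher in road filter 26 against 28, also 0 with the insert covariate. The subway median became 0.228 there, by construction, since pool 4 of harbour filter 36 alone sets that series apart from subway. rpl5b in subway became 0.007 and rpl5a in harbour filter 36 became -0.014.

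Leaving out 1 library gave 0 to 51 members lower in airport against vehicle, 0 to 47 against harbour and road, 0 to 1 higher against mock filter, 0 to 4 lower in harbour filter 38, 0 to 3 in road filter 26, 2 to 11 in harbour filter 38 against 36, 0 to 1 higher in subway and 0 to 1 in road filter 26 against 28. rps27l in airport ran from -0.249 to 0.002, and stood at 0.024 with vehicle and mock filter as control. rpl5a ran from -0.017 to 0.079 in harbour filter 36 and from -0.07 to 0.027 in road filter 28, where rpl5b ran from -0.081 to 0.02. The cause of these changes was not tested, and the share of all genes called in each setting is not given here.

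Replicate numbers were not taken to pair the samples. Deviations of same-numbered libraries correlated at 0.231, -0.205 and 0.306 (mock filter and vehicle), 0.105, 0.166 and 0.098 (harbour filters) and 0.008, 0 and -0.004 (road filters), and in the harbour filters each library correlated best with its own number, a hint from the data. With the replicate block, 2 members were lower in harbour filter 38 than in 36, 2 in road filter 26 than in 28 and 0 in mock filter than in vehicle.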
